A study of Mus musculus with 8 samples.

Results

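The Slc25 genes encode the mitochondrial carriers, the largest family of transport proteins of the inner mitochondrial membrane. They were taken as every gene whose symbol is Slc25a followed by digits, which gave 47 genes of the 35963 gene symbols measured. These 47 genes were covered by 165 of the 106506 transcripts that carried a symbol. Ucp1, Ucp2 and Ucp3, which belong to the same protein family under other symbols, are not counted among them.

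RNA of colonic epithelial cells from the proximal colon of mice aged 4 weeks was sequenced in 8 libraries. The 4 libraries labelled Ccna2-KO came from Ccna2 fl/fl vil-Cre mice, in which both copies of Ccna2 carry sites for Cre recombinase and the villin promoter drives Cre in intestinal epithelium. The 4 control libraries, whose labels also call them wild type, came from Ccna2 fl/fl mice, which carry those sites but lack Cre. Cyclin A2, the product of Ccna2, binds and activates cyclin-dependent kinases during DNA synthesis and before mitosis. Whether each library is a separate animal is not stated in the labels, and p-values therefore cover only the spread between these libraries, which may be technical.

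Mitochondrial carriers exchange metabolites across a membrane that is otherwise closed to most charged molecules. They import ADP, phosphate, iron, glutathione, cofactors and acylcarnitines into the matrix, and they pass ATP, citrate and other carboxylates out of it. Colonocytes oxidise butyrate from the gut lumen in their mitochondria, and citrate leaving the matrix feeds lipid synthesis in the cytosol.

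The libraries held between 27162083 and 34386731 estimated counts. Ccna2 itself did not separate the groups. It had 18.2, 26.6, 26.6 and 16.2 CPM (counts scaled to library size) in the Ccna2-KO libraries, against 54.3, 25.9, 11.9 and 18.3 CPM in the controls, and the groups overlapped (log2 fold change -0.33 ± 0.41 SE, edgeR adjusted p = 0.673). Which exons were flanked is not stated in the labels, so this level does not check the deletion, and directions rest on the labels alone. The numbers in the labels form a low set, 595 to 598, with 3 controls and Ccna2-KO replicate 4, and a high set, 621 to 641, with control replicate 1 and the other Ccna2-KO libraries. The labels do not explain the numbers. Each set held 3 libraries of one group and 1 of the other, so neither set alone had replicates in both groups. Values from a fit over all libraries with a term for the set, which rests on the differences within the sets, are called set-adjusted.

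A few carrier genes differed between the groups, and the rest of the family did not pass the test. Slc25a45, Slc25a48 and Slc25a4 were higher, and Slc25a29 and Slc25a42 were lower, in the Ccna2-KO libraries. Of the 47 genes, 40 passed the filter on low counts and were tested with edgeR's quasi-likelihood test, adjusted over all 15893 genes kept. The 5 called genes were 12.5% of the 40, beside 12.1% of all genes tested, so the family was called at about the rate of all genes. By direction, 3 carriers (7.50%) were higher, beside 6.40% of all genes, and 2 (5.0%) were lower, beside 5.71%. The median log2 fold change was 0.03 over the 40 carriers and -0.01 over all genes, and the median absolute change was 0.21 for carriers and 0.24 for all genes. In 33 of the 40 the change was smaller than 0.5 on the log2 scale.

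**Figure D1:**
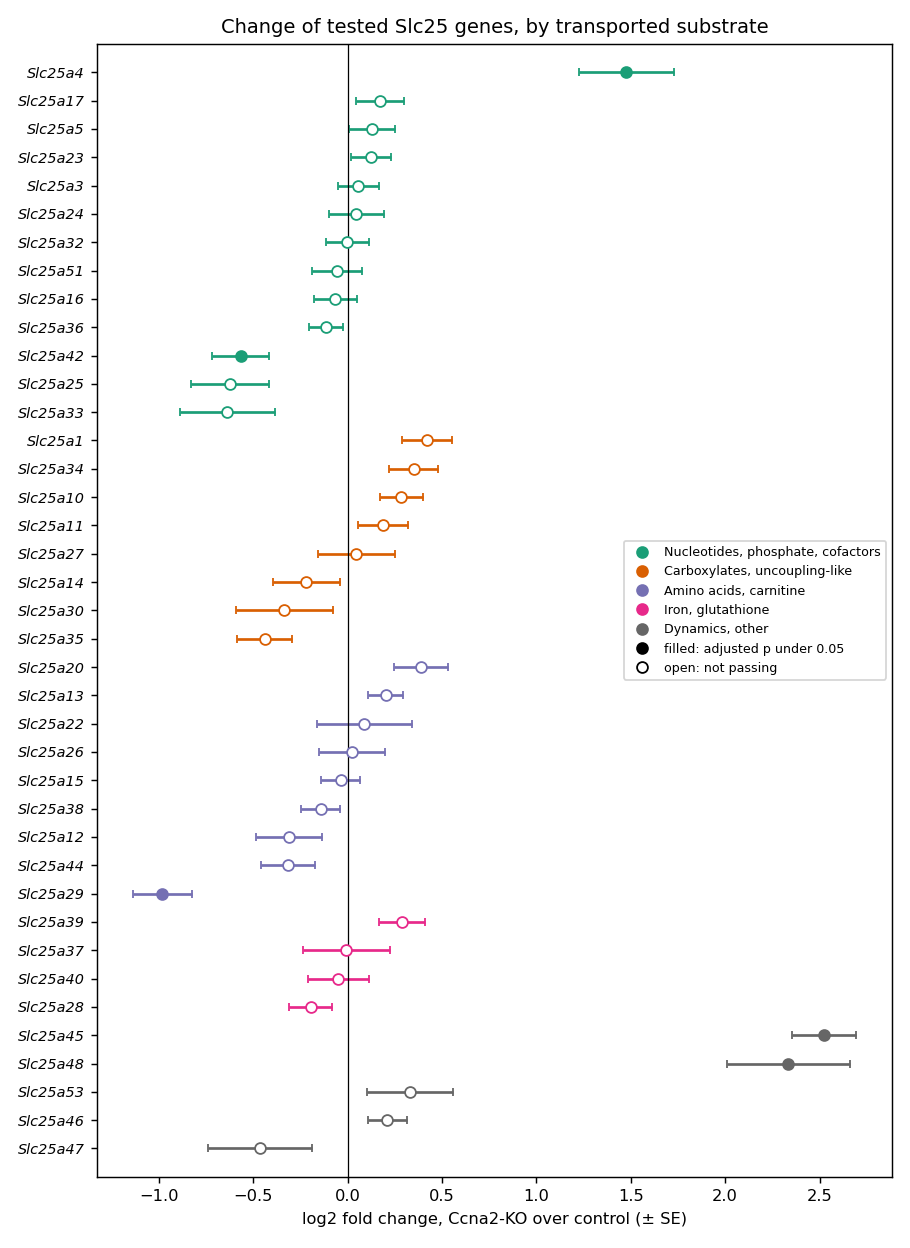
Log2 fold change of tested carrier genes, Ccna2-KO over control, with bars of 1 SE. Genes are grouped by broad substrate class, with a last group of outer membrane, little studied or unassigned carriers. Filled points passed an adjusted p of 0.05. Slc25a45, Slc25a48 and Slc25a4 lie to the right at 2.53, 2.33 and 1.48, Slc25a29 and Slc25a42 lie to the left at -0.98 and -0.57, and the open points lie between -0.64 and 0.42.

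The groups did not overlap in 9 of the 40 carriers (22.5%), beside 19.0% of all genes tested. These were the 5 called genes and Slc25a1, Slc25a10, Slc25a34 and Slc25a35, of which 6 were higher and 3 lower in the Ccna2-KO libraries. With the set term, 10 of the 40 carriers passed (25.0%), beside 18.2% of all genes. Of the 5 genes above, 4 were among these 10, all but Slc25a42, and Slc25a12, Slc25a20, Slc25a34, Slc25a35, Slc25a46 and Slc25a47 were added. Without control replicate 1, 12 of the 40 passed (30.0%), beside 28.5% of all genes, and these were the 5 called genes with Slc25a1, Slc25a11, Slc25a17, Slc25a25, Slc25a33, Slc25a39 and Slc25a44.

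Summed over all 47 genes, carrier RNA lay slightly higher in the Ccna2-KO libraries, with hardly any gap between the groups. The sums were 4649, 4702, 4661 and 5150 CPM in the Ccna2-KO libraries, against 4577, 4647, 4357 and 4234 CPM in the controls. Ccna2-KO replicate 4 had the highest sum, Ccna2-KO replicate 1 lay just above control replicate 2, and the ratio of the means was 1.08. With RLE scaling the sums overlapped, at 4664 to 5163 CPM in the Ccna2-KO libraries and 4230 to 4673 CPM in the controls, and they also overlapped as plain CPM. Slc25a5 and Slc25a3 together made up 47.6% ± 1.42 of the sum in the Ccna2-KO libraries and 47.6% ± 3.67 in the controls (SD, n = 4 each). In bulk RNA, fewer cells of a type and less RNA per cell cannot be told apart, here and in every level that follows.

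Slc25a45 had the largest log2 fold change of the 40 tested carriers. The protein has been linked in recent work to the uptake of methylated amino acids into mitochondria. Slc25a45 (NCBI gene 107375) lies on chromosome 19 from 5877801 to 5885768 on the plus strand (GRCm38) and has 6 exons in the annotation. It had 11.6, 9.38, 9.55 and 8.63 CPM in the Ccna2-KO libraries, against 1.498, 1.88, 1.69 and 1.73 CPM in the controls. All Ccna2-KO libraries lay far above all controls, and the controls lay close together. The means were 9.79 ± 1.27 CPM in the Ccna2-KO libraries and 1.70 ± 0.155 CPM in the controls (SD, n = 4 each). This gave a log2 fold change of 2.53 with an SE of 0.17 (edgeR adjusted p = 9.77e-05). With the set term it was 2.51 (adjusted p = 8.64e-05).

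Single transcripts were also tested, and 1 of the 96 carrier transcripts kept was called (1.04%), beside 0.930% of all transcripts. It was XM_006531622.3 of Slc25a45, with 4.37, 3.37, 3.56 and 2.83 CPM in the Ccna2-KO libraries, against 0.571, 0.433, 0.910 and 0.787 CPM in the controls (log2 fold change 2.38 ± 0.37, edgeR adjusted p = 0.0347). The transcript NM_134154.3 of the same gene had a log2 fold change of 2.42 ± 0.50 and did not pass (adjusted p = 0.0777). NM_134154.3 held on average 49.9% of the gene's counts in the Ccna2-KO libraries and 53.0% in the controls. By library its share ran from 28.8% to 66.8% in the Ccna2-KO libraries and from 18.2% to 76.6% in the controls. XM_006531622.3 held on average 35.6% in the Ccna2-KO libraries (33.2% to 37.2%) and 40.2% in the controls (23.4% to 54.5%). The remaining transcript, XM_006531621.3, held on average 14.5% in the Ccna2-KO libraries (0% to 34.6%) and 6.36% in the controls (0% to 25.5%). With no filter on low counts, 0 of 153 carrier transcripts passed in edgeR, where 19 had an unadjusted p under 0.05.

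Slc25a48, linked to the import of choline into mitochondria, was a rare transcript that was higher in the Ccna2-KO libraries. The gene (NCBI gene 328258) lies on chromosome 13 from 56437960 to 56472367 on the plus strand and has 8 exons. It had 2.09, 2.61, 1.997 and 1.80 CPM in the Ccna2-KO libraries, against 0.697, 0.239, 0.400 and 0.333 CPM in the controls. The highest control lay below the lowest Ccna2-KO library. The means were 2.12 ± 0.344 CPM in the Ccna2-KO libraries and 0.417 ± 0.198 CPM in the controls (SD, n = 4 each), with a log2 fold change of 2.33 ± 0.32 (edgeR adjusted p = 0.00269; set-adjusted 2.06, adjusted p = 0.00194).

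Slc25a4 encodes ANT1, the ADP/ATP carrier best known from heart and skeletal muscle, and it was higher in the Ccna2-KO libraries. The gene (NCBI gene 11739) lies on chromosome 8 from 46207168 to 46211062 on the minus strand and has 4 exons. It had 44.4, 38.3, 37.04 and 37.1 CPM in the Ccna2-KO libraries, against 23.0, 11.5, 9.56 and 12.2 CPM in the controls. The groups did not overlap, and control replicate 1 was the highest of its group. The means were 39.2 ± 3.51 CPM in the Ccna2-KO libraries and 14.1 ± 6.07 CPM in the controls (SD, n = 4 each). On the log2 scale the difference was 1.48 ± 0.25 (edgeR adjusted p = 0.00653), and 1.26 set-adjusted (adjusted p = 0.00252).

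Muscle markers were looked at beside Slc25a4, since the gene is known from muscle. The summed level of 10 fibroblast and muscle markers ranged from 10.5 to 31.0 CPM in the Ccna2-KO libraries and from 7.03 to 14.1 CPM in the controls. Of the 5 that were tested, edgeR called 1, Des, which encodes the muscle filament protein desmin, and 2 had an unadjusted p under 0.05. Limma voom called 1 of the 5, and DESeq2 called 2, Des and Col3a1, beside 12.4% and 18.6% of all genes. The median log2 fold change over the 5 was 0.95. Des and Col3a1 are named here after their values were seen. Des had 1.65, 1.11, 1.69 and 1.29 CPM in the Ccna2-KO libraries, against 0.244, 0.160, 0.431 and 0.545 CPM in the controls (log2 fold change 2.01 ± 0.36, edgeR adjusted p = 0.00795). The smooth muscle markers Acta2, Myh11, Actg2 and Tagln were below the filter, at no more than 0.364 CPM in any library, and no marker of the list was at 0 in all libraries. The part of these markers in the Slc25a4 result was not tested.

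Slc25a29, a carrier of basic amino acids, was lower in the Ccna2-KO libraries. The gene (NCBI gene 214663) lies on chromosome 12 from 108825878 to 108835876 on the minus strand and has 4 exons. It had 3.54, 3.12, 3.28 and 4.08 CPM in the Ccna2-KO libraries, against 6.72, 6.62, 6.95 and 7.33 CPM in the controls. The groups did not overlap. The means were 3.503 ± 0.421 CPM in the Ccna2-KO libraries and 6.91 ± 0.313 CPM in the controls (SD, n = 4 each). The log2 fold change was -0.98 ± 0.15 (edgeR adjusted p = 0.00478; set-adjusted -0.90, adjusted p = 0.00476). Slc25a47, whose gene lies 13957 bases away on the same chromosome, did not pass (log2 fold change -0.46, adjusted p = 0.327).

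Slc25a42, which imports coenzyme A into mitochondria in exchange for adenine nucleotides, was lower in the Ccna2-KO libraries, with the log2 fold change nearest to 0 of the called genes. The gene (NCBI gene 73095) lies on chromosome 8 from 70184340 to 70212281 on the minus strand and has 8 exons. It had 11.7, 13.3, 12.1 and 14.5 CPM in the Ccna2-KO libraries, against 14.7, 21.1, 18.2 and 22.4 CPM in the controls. The groups were separated by a narrow gap between Ccna2-KO replicate 4 and control replicate 1. The means were 12.9 ± 1.25 CPM in the Ccna2-KO libraries and 19.1 ± 3.45 CPM in the controls (SD, n = 4 each). The log2 fold change was -0.57 ± 0.15 (edgeR adjusted p = 0.0408). The call was lost with the set term (-0.38, adjusted p = 0.0680) and without any 1 of 6 libraries (adjusted p between 0.0765 and 0.128), the exceptions being Ccna2-KO replicate 4 (adjusted p = 0.0495) and control replicate 1 (adjusted p = 0.00289).

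**Figure D2:**
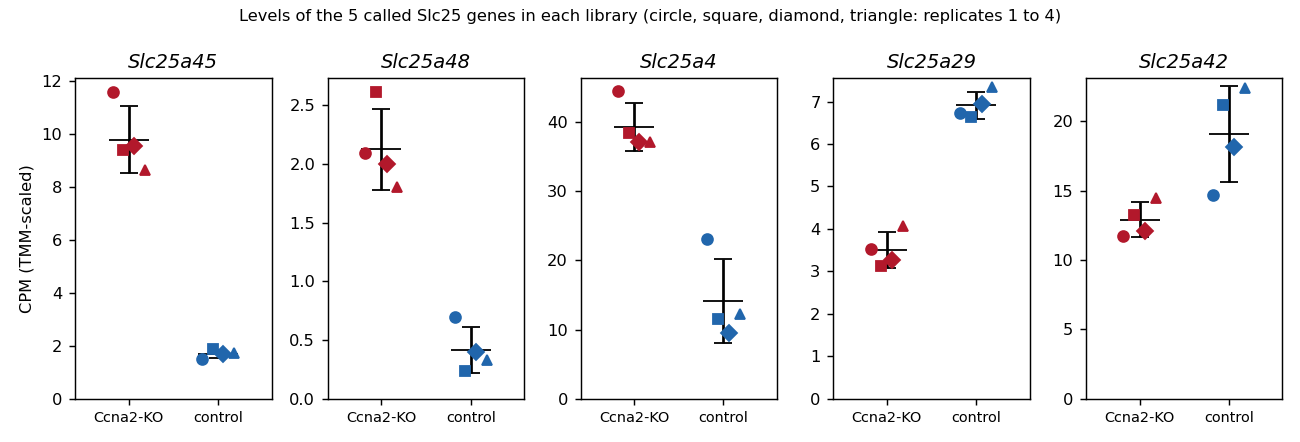
CPM of the 5 called carrier genes in each library, Ccna2-KO left and control right, with the mean as a line and 1 SD as bars (n = 4 each). Marker shapes give the replicate number, the vertical axes start at 0, and in each panel the groups do not overlap, with the narrowest gap in Slc25a42 (14.5 CPM in Ccna2-KO replicate 4 against 14.7 CPM in control replicate 1).

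The promoters of these genes are shown because the genes moved in opposite directions and their start regions can be compared. Each is the 250 bases before an annotated start of the gene, from RefSeq on GRCm38.p6, 5′ to 3′ along the gene. Some annotated transcripts of Slc25a45 and Slc25a48 start further upstream. Capitals mark GC boxes (GGGCGG on either strand) and CCAAT boxes (CCAAT on either strand).
Slc25a45 promoter (chr19:5877572-5877821, plus strand): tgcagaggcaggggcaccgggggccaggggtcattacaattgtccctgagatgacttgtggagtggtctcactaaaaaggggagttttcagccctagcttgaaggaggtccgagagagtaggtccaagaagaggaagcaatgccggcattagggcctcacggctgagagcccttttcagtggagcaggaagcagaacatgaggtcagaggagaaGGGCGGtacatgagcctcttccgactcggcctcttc
Slc25a48 promoter (chr13:56438105-56438354, plus strand): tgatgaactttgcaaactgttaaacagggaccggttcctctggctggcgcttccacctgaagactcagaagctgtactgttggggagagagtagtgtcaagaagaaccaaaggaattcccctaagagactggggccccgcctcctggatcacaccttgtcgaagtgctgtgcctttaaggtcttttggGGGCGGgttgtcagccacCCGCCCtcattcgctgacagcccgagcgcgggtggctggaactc
Slc25a4 promoter (chr8:46211063-46211312, minus strand): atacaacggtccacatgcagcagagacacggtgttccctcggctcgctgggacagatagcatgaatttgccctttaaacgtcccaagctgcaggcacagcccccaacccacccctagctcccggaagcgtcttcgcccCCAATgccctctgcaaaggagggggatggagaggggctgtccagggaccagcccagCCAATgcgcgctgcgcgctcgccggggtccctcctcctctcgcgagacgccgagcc
Slc25a29 promoter (chr12:108835877-108836126, minus strand): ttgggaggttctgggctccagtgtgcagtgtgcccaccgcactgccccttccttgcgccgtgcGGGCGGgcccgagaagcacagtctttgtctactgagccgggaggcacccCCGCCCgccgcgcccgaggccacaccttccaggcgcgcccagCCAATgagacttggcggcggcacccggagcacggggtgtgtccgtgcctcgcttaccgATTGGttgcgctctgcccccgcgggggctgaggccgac
Slc25a42 promoter (chr8:70212282-70212531, minus strand): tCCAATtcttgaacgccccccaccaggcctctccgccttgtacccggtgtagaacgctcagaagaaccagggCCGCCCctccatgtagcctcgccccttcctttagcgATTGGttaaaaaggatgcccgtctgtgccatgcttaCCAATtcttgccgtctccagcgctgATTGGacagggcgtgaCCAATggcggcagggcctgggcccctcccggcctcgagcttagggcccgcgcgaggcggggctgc

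Slc25a45 and Slc25a48, both higher, held 1 and 2 GC boxes and no CCAAT box in this window. Slc25a4, also higher, held 2 CCAAT boxes and no GC box. Slc25a29 and Slc25a42, both lower, held both kinds, with 2 CCAAT boxes and 2 GC boxes in Slc25a29 and 5 CCAAT boxes and 1 GC box in Slc25a42. These motifs are common. A GC box was found in 32.7% and a CCAAT box in 33.8% of 32851 promoters of the same length, and in 32 and 21 of the 46 promoters of 36 carrier genes in the table. The GC content was 56.4% for Slc25a45 and Slc25a48, 64.8% for Slc25a4, 63.6% for Slc25a42 and 71.2% for Slc25a29, beside a median of 52.4% over all promoters.

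A further 6 motifs were searched on both strands, and none was found in these 5 windows. They were the TATA box (TATAAA, in 12.4% of all promoters), the E-box (CACGTG, 6.02%), the NRF1 palindrome (0.782%), the CRE (TGACGTCA, 1.55%), the AP-1 site (TGANTCA, 6.75%) and the DR1 element (0.0335%). The absence of a match says only that these letters are not in the window. A match is a description of the sequence and not a site.

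Carriers of nucleotides, phosphate and cofactors were the largest group, with 16 genes of which 14 were tested. In edgeR Slc25a4 was higher, Slc25a42 was lower and 12 did not pass. Limma voom also called 2 of the 14 and DESeq2 called 3, with Slc25a25 added, while over all genes limma voom called 12.4% and DESeq2 18.6%. The median log2 fold change was 0.02. Slc25a5, which encodes ANT2, the ADP/ATP carrier of dividing and epithelial cells, had 1378, 1480, 1358 and 1546 CPM in the Ccna2-KO libraries, against 1537, 1362, 1209 and 1163 CPM in the controls. Control replicate 1 lay within the upper end of the Ccna2-KO range and the groups overlapped. The log2 fold change was 0.13 ± 0.12 (edgeR adjusted p = 0.568). Slc25a3, the phosphate carrier that supplies ATP synthase, had 811, 841, 785 and 921 CPM in the Ccna2-KO libraries, against 888, 814, 797 and 730 CPM in the controls, with overlapping groups (0.06 ± 0.11, adjusted p = 0.800).

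The calcium-regulated carriers of ATP-Mg and phosphate did not pass in edgeR with all libraries. Slc25a25 had 132, 119, 97.6 and 188 CPM in the Ccna2-KO libraries, against 158, 238, 205 and 224 CPM in the controls. Only Ccna2-KO replicate 4 reached the control range (log2 fold change -0.62 ± 0.21, edgeR adjusted p = 0.0847). Slc25a25 was called as lower by DESeq2, and by edgeR when either control replicate 1 or Ccna2-KO replicate 4 was left out, where edgeR called 28.5% and 10.6% of all genes. The set-adjusted change was smaller, at -0.34, and did not pass (adjusted p = 0.0778). Slc25a24 had 374, 338, 359 and 424 CPM in the Ccna2-KO libraries, against 272, 400, 383 and 392 CPM in the controls, so control replicate 1 was the lowest of all (0.05, adjusted p = 0.882). The pyrimidine nucleotide carrier Slc25a33 had 9.03, 9.53, 10.1 and 11.5 CPM in the Ccna2-KO libraries, against 10.5, 13.6, 13.3 and 25.1 CPM in the controls, where control replicate 4 stood highest (-0.64 ± 0.25, adjusted p = 0.140). The transcript NM_001164357.1 of Slc25a25 held 18.8%, 14.5%, 31.9% and 21.6% of that gene's counts in the Ccna2-KO libraries, against 10.0%, 14.3%, 12.6% and 13.3% in the controls, and its level did not pass (log2 fold change 0.13 ± 0.30, edgeR adjusted p = 0.956).

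Carboxylate carriers and uncoupling-like proteins numbered 9, of which 8 were tested, with a median log2 fold change of 0.12. In edgeR 0 of the 8 passed and 4 had an unadjusted p under 0.05, limma voom called 0, and DESeq2 called 2, Slc25a1 and Slc25a35. Slc25a1, the citrate carrier, had 146, 146, 180 and 143 CPM in the Ccna2-KO libraries, against 139, 116, 101 and 103 CPM in the controls. The groups did not overlap, with Ccna2-KO replicate 3 highest and control replicate 1 closest to the Ccna2-KO range. The log2 fold change was 0.42 ± 0.13 (edgeR adjusted p = 0.0695), and 0.30 set-adjusted (adjusted p = 0.0926). Without control replicate 1 it was 0.53 (adjusted p = 0.00548), and without any 1 of the other 7 libraries it did not pass (adjusted p between 0.0861 and 0.190). The dicarboxylate carrier Slc25a10 had 343, 349, 418 and 421 CPM in the Ccna2-KO libraries, against 306, 342, 319 and 291 CPM in the controls, without overlap (0.28 ± 0.11, adjusted p = 0.146).

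Both Slc25a34 and Slc25a35, carriers with no settled substrate, passed once the set term was added. Slc25a34 had 48.6, 46.4, 42.1 and 62.2 CPM in the Ccna2-KO libraries, against 35.4, 41.4, 40.2 and 39.4 CPM in the controls (log2 fold change 0.35 ± 0.13, edgeR adjusted p = 0.115; set-adjusted 0.50, adjusted p = 0.00758). Slc25a35 had 28.5, 31.8, 26.5 and 22.2 CPM in the Ccna2-KO libraries, against 45.3, 32.0, 34.3 and 36.1 CPM in the controls (-0.44 ± 0.15, adjusted p = 0.0841; set-adjusted -0.63, adjusted p = 0.00361). Ccna2-KO replicate 2 and control replicate 2 were nearly level in Slc25a35. In both genes control replicate 1 and Ccna2-KO replicate 4, each alone of its group in its set, lay at opposite ends of the 8 libraries. Neither gene was called by edgeR without control replicate 1, where 28.5% of all genes were called.

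Amino acid and carnitine carriers numbered 11, of which 9 were tested. In edgeR Slc25a29 was lower, 8 did not pass and the median log2 fold change was -0.04. Slc25a20, which brings acylcarnitines into the matrix for fatty acid oxidation, had 261, 243, 286 and 268 CPM in the Ccna2-KO libraries, against 160, 243, 224 and 182 CPM in the controls. Ccna2-KO replicate 2 and control replicate 2 were level, and the others lay apart. Its log2 fold change was 0.39 ± 0.14 (edgeR adjusted p = 0.117), and 0.51 set-adjusted (adjusted p = 0.0337). Without control replicate 1, its lowest library, Slc25a20 was at 0.29 and did not pass (edgeR adjusted p = 0.0834).

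The aspartate/glutamate carriers of the malate-aspartate shuttle differed from each other in direction without passing. Slc25a12 had 16.5, 15.0, 15.8 and 11.5 CPM in the Ccna2-KO libraries, against 24.1, 17.1, 16.2 and 15.6 CPM in the controls (log2 fold change -0.31 ± 0.18, edgeR adjusted p = 0.305; set-adjusted -0.56, adjusted p = 0.00625). Without control replicate 1, its highest library, Slc25a12 was at -0.14 (edgeR adjusted p = 0.454). Slc25a13, also known as citrin, had 54.1, 59.9, 57.4 and 51.3 CPM in the Ccna2-KO libraries, against 43.9, 52.2, 50.5 and 47.1 CPM in the controls (0.20 ± 0.09, adjusted p = 0.213). Both genes overlapped between the groups. The carrier of branched-chain amino acids, Slc25a44, had 46.0, 39.6, 41.8 and 42.3 CPM in the Ccna2-KO libraries, against 37.9, 58.1, 59.2 and 55.9 CPM in the controls, where control replicate 1 lay below every other library (-0.32, adjusted p = 0.198).

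The 4 iron and glutathione carriers were all tested, with a median log2 fold change of -0.03. In edgeR 0 passed and 1 had an unadjusted p under 0.05, and DESeq2 and limma voom called 0. Slc25a37, mitoferrin 1, had 67.6, 60.4, 52.6 and 73.7 CPM in the Ccna2-KO libraries, against 34.8, 69.0, 76.2 and 75.4 CPM in the controls. Control replicate 1 was the lowest library and the other controls lay in the upper part of the Ccna2-KO range or above it (log2 fold change -0.01 ± 0.23, edgeR adjusted p = 0.988). Slc25a28, mitoferrin 2, had 19.9, 20.4, 21.4 and 19.0 CPM in the Ccna2-KO libraries, against 26.5, 24.1, 21.8 and 20.1 CPM in the controls (-0.20 ± 0.11, adjusted p = 0.318). Slc25a39, which imports glutathione, had 217, 229, 230 and 241 CPM in the Ccna2-KO libraries, against 226, 172, 160 and 193 CPM in the controls, with control replicate 1 inside the Ccna2-KO range (0.29 ± 0.12, adjusted p = 0.170).

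The last group held 7 genes of outer membrane, little studied or unassigned carriers, of which 5 were tested. Slc25a45 and Slc25a48 were higher in edgeR, 3 did not pass and the median log2 fold change was 0.33. Slc25a46, a protein of the outer mitochondrial membrane, had 73.1, 71.0, 72.2 and 81.1 CPM in the Ccna2-KO libraries, against 55.1, 72.3, 63.9 and 65.8 CPM in the controls (log2 fold change 0.21, edgeR adjusted p = 0.238; set-adjusted 0.33, adjusted p = 0.0253). Slc25a47 had 2.63, 2.998, 2.50 and 1.73 CPM in the Ccna2-KO libraries, against 4.95, 2.31, 3.08 and 3.27 CPM in the controls, and its set-adjusted value was -0.81 (adjusted p = 0.0247). In Slc25a46 and Slc25a47 too, control replicate 1 and Ccna2-KO replicate 4 lay at opposite ends. Neither of these genes was called by edgeR without control replicate 1.

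A further 16 tested carriers had adjusted p between 0.406 and 0.996 in edgeR, and in all 16 the groups overlapped. They were Slc25a11, which exchanges oxoglutarate for malate, the uncoupling-like Slc25a14, Slc25a27 and Slc25a30, the ornithine carrier Slc25a15, Slc25a16, the peroxisomal Slc25a17, the glutamate carrier Slc25a22, Slc25a23, the S-adenosylmethionine carrier Slc25a26, the folate carrier Slc25a32, Slc25a36, the glycine carrier Slc25a38, Slc25a40, the NAD carrier Slc25a51 and Slc25a53. Their log2 fold changes lay between -0.33 in Slc25a30 and 0.33 in Slc25a53, both of which were rare transcripts. Slc25a30 averaged 1.89 ± 0.348 CPM in the Ccna2-KO libraries and 2.39 ± 0.597 CPM in the controls (SD, n = 4 each). Slc25a53 averaged 1.31 ± 0.201 CPM in the Ccna2-KO libraries and 1.05 ± 0.183 CPM in the controls (SD, n = 4 each).

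**Figure D3:**
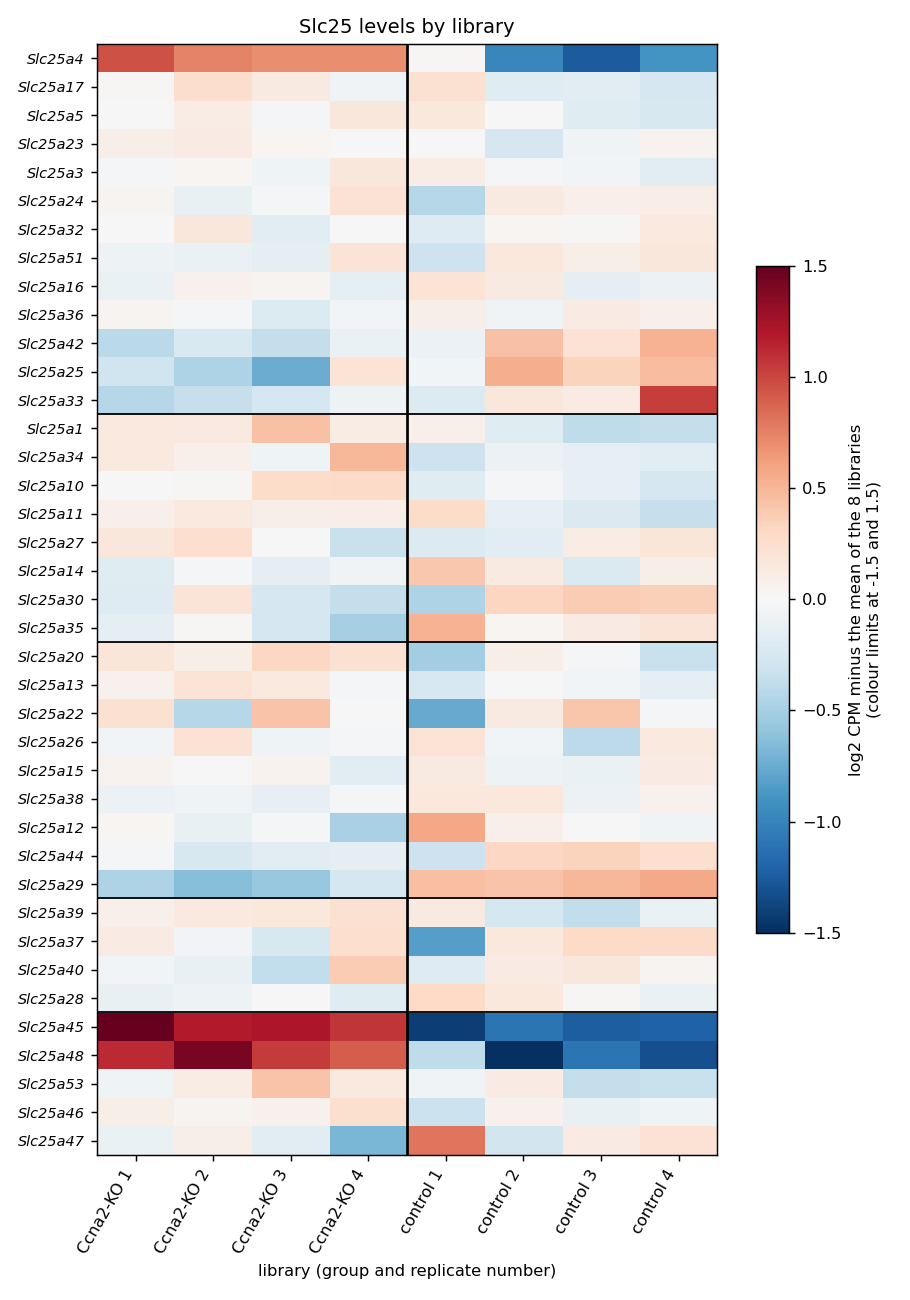
Level of tested carrier genes in each library, as log2 CPM minus the mean of the 8 libraries, with Ccna2-KO columns left and control columns right and the gene groups divided by lines. Slc25a45, Slc25a48 and Slc25a4 are red across the Ccna2-KO libraries, Slc25a29 is blue across them, and control replicate 1 differs in colour from the other controls in several genes, such as Slc25a37 (34.8 CPM, against 69.0 to 76.2 CPM in the other controls).

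The balance between closely related carriers was compared in 7 pairs as the log2 ratio of their counts, which does not depend on library scaling. Slc25a4 over Slc25a5 was -4.95, -5.27, -5.19 and -5.38 in the Ccna2-KO libraries, against -6.06, -6.87, -6.97 and -6.56 in the controls. Slc25a4 made up 3.12%, 2.52%, 2.66% and 2.34% of the summed counts of the pair in the Ccna2-KO libraries, against 1.48%, 0.840%, 0.785% and 1.04% in the controls. Slc25a5 thus held nearly all of the pair's counts in every library. The difference was 1.42, with an exact two-sided permutation p of 0.0286, the smallest that 4 against 4 libraries can give, and 0.0667 after adjustment over the 7 pairs.

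The Slc25a12 over Slc25a13 and Slc25a24 over Slc25a25 ratios also did not overlap between the groups. They differed by -0.50 and 0.71, each with an exact permutation p of 0.0286 and 0.0667 adjusted. Slc25a23 over Slc25a25 differed by 0.77 (exact permutation p = 0.0571, adjusted 0.100), Slc25a33 over Slc25a36 by -0.44 (exact permutation p = 0.114, adjusted 0.160), and Slc25a39 over Slc25a40 by 0.37 (exact permutation p = 0.200, adjusted 0.233). The mitoferrin ratio, Slc25a28 over Slc25a37, differed by -0.24 (exact permutation p = 0.657, adjusted 0.657). None of the 7 passed after adjustment, and 2 of the pairs share Slc25a25. As 0.0286 is the smallest possible p, no pair could pass after adjustment unless most of the 7 reached it. The adjusted values therefore cannot decide whether a single pair differed. Reads that fit several near-identical transcripts are divided between them, so levels of closely related genes are uncertain to that extent.

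**Figure D4:**
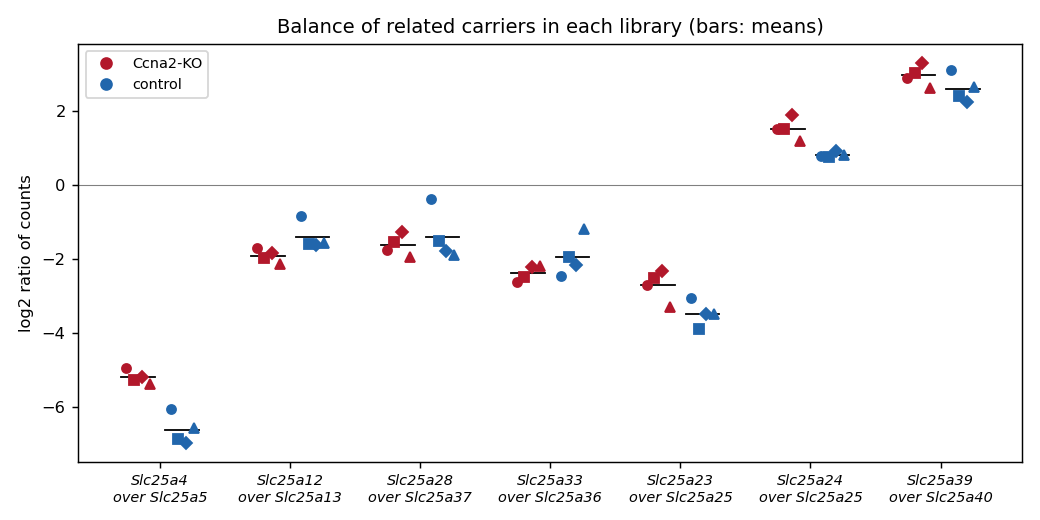
Log2 ratio of counts for 7 pairs of related carriers in each library, Ccna2-KO left and control right in each pair, with the mean as a bar and marker shapes for replicate numbers. Slc25a4 over Slc25a5 lies between -5.38 and -4.95 in Ccna2-KO libraries and between -6.97 and -6.06 in controls, and control replicate 1 stands apart in the Slc25a12 over Slc25a13 ratio at -0.86.

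Levels were compared between carriers as CPM per kilobase, after division by the length of 1 annotated transcript per gene, which was not always the one with most counts. Slc25a5 came first in both groups, with 1162 ± 71.0 CPM per kilobase in the Ccna2-KO libraries and 1063 ± 136 in the controls (SD, n = 4 each). Slc25a3 came next, with 521 ± 36.6 in the Ccna2-KO libraries and 501 ± 40.4 in the controls. Slc25a10 had 189 ± 21.1 in the Ccna2-KO libraries and 155 ± 10.6 in the controls, and Slc25a20 had 148 ± 9.92 in the Ccna2-KO libraries and 113 ± 21.4 in the controls. Slc25a39 had 136 ± 5.79 in the Ccna2-KO libraries and 112 ± 17.2 in the controls, and Slc25a24 had 109 ± 10.7 in the Ccna2-KO libraries and 105 ± 17.6 in the controls. The last 3 overlapped in the controls, so their order there lies within the spread. Slc25a4 ranked 13 of the 40 tested carriers in the Ccna2-KO libraries, with 20.4 ± 1.83 CPM per kilobase, and 26 in the controls, with 7.32 ± 3.15. Slc25a45 ranked 30 in the Ccna2-KO libraries with 3.95 CPM per kilobase, and 37 in the controls with 0.685. Slc25a48 stayed near the bottom, at rank 38 with 0.630 CPM per kilobase in the Ccna2-KO libraries and rank 40 with 0.124 in the controls. Its length was that of NM_177809.4, which held on average 20.2% of the gene's counts in the Ccna2-KO libraries and 22.3% in the controls. By library this share ran from 6.25% to 47.8% in the Ccna2-KO libraries and from 0% to 69.2% in the controls. These means therefore do not describe a stable split.

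The 7 carriers below the filter held few counts. Slc25a2, Slc25a18, Slc25a31, Slc25a41, Slc25a43 and Slc25a54 summed to 5, 22, 5, 4, 46 and 3 counts over the Ccna2-KO libraries, against 17, 24, 1, 0, 22 and 2 over the controls. Slc25a21, which carries oxodicarboxylates of lysine and tryptophan breakdown, had 7, 9, 7 and 5 counts in the Ccna2-KO libraries, against 1, 0, 2 and 0 in the controls. Scaled to library size, the ratio of the group sums was 9.23 (95% counting interval 2.85 to 47.5, counting error only). With no filter on low counts Slc25a21 passed (edgeR adjusted p = 0.0206), which made 6 of 47 carriers (12.8%), beside 6.85% of all genes in that fit. That fit took in 27164 genes, of which 15893 pass the filter, while 40 of the 47 carriers pass it. The shares are therefore not on a like base, and with the filter they were 12.5% and 12.1%.

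Among genes that work with the carriers, the calls lay mostly in the partner enzymes. Of 78 genes tested in 5 lists (carrier proteins under other symbols, the import machinery for carriers, other mitochondrial transport, partner enzymes and mitochondrial biogenesis), 5 were higher and 3 were lower in the Ccna2-KO libraries (10.3%, beside 12.1% of all genes), with a median log2 fold change of 0.08. By list, 7 of the 32 partner enzymes were called (21.9%), and 1 of the 46 genes of the other 4 lists (2.17%). Ucp2, an uncoupling-protein relative of the carriers, had 668, 711, 716 and 651 CPM in the Ccna2-KO libraries, against 804, 657, 645 and 586 CPM in the controls (0.03 ± 0.12, edgeR adjusted p = 0.914). In edgeR 0 of 9 genes of the import machinery and 0 of 17 of mitochondrial biogenesis passed, with 2 of each list at an unadjusted p under 0.05. DESeq2 called 0 and 1 of them, and limma voom 0 and 0. Of the 3 tested carrier proteins under other symbols, 0 passed and 0 had an unadjusted p under 0.05 in edgeR, and 0 were called by DESeq2 or limma voom. Of 17 other transport genes, Vdac3, a channel of the outer membrane, was lower, with 254, 263, 234 and 256 CPM in the Ccna2-KO libraries, against 344, 353, 322 and 333 CPM in the controls (-0.43 ± 0.09, adjusted p = 0.0175).

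Of the 7 partner enzymes called by edgeR, 5 were higher and 2 lower in the Ccna2-KO libraries, while DESeq2 called 11 of the 32, beside 18.6% of all genes, and limma voom 6, beside 12.4%. Cs, citrate synthase, which makes the citrate that Slc25a1 carries, had 956, 915, 906 and 1135 CPM in the Ccna2-KO libraries, against 665, 741, 720 and 599 CPM in the controls (log2 fold change 0.52 ± 0.12, edgeR adjusted p = 0.0242). Mthfd2, an enzyme of mitochondrial folate metabolism, had 15.1, 20.7, 18.0 and 13.5 CPM in the Ccna2-KO libraries, against 12.8, 4.91, 5.10 and 5.998 CPM in the controls (1.23 ± 0.31, adjusted p = 0.0324). Pank1, which starts coenzyme A synthesis, had 21.1, 23.2, 23.4 and 23.1 CPM in the Ccna2-KO libraries, against 34.6, 29.2, 26.2 and 33.8 CPM in the controls (-0.45 ± 0.11, adjusted p = 0.0330). The other 4, named after their values were seen, were Got2, Acly and Cps1, which were higher, and Glud1, which was lower (adjusted p between 0.0356 and 0.0468).

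Markers of some other cells moved with the groups, beside 12.1% of all genes called by edgeR. Of 9 epithelial markers, 0 were called by edgeR (2 at an unadjusted p under 0.05), DESeq2 or limma voom, and their summed level ranged from 20087 to 26784 CPM in the Ccna2-KO libraries and from 20709 to 23555 CPM in the controls. The colonocyte markers had 0 of 10 called by edgeR (4 at an unadjusted p under 0.05), 3 by DESeq2 and 0 by limma voom, with sums of 31341 to 36898 CPM in the Ccna2-KO libraries and 22176 to 34276 CPM in the controls. Of 7 goblet, 2 B and plasma cell and 1 nerve and glia marker tested, 0 were called by edgeR, DESeq2 or limma voom and 0 had an unadjusted p under 0.05 in edgeR. Goblet sums were 8426 to 13567 CPM in the Ccna2-KO libraries and 8182 to 18011 CPM in the controls, and the B and plasma cell sums (1.17 to 2.09 CPM in the Ccna2-KO libraries, 1.27 to 2.21 CPM in the controls) and nerve and glia sums (0.531 to 1.01 CPM in the Ccna2-KO libraries, 0.918 to 1.38 CPM in the controls) were low in both groups. Control replicate 1 had the highest goblet sum, 18011 CPM, against 8182 to 12849 CPM in the other controls. Its colonocyte sum was the lowest, 22176 CPM, against 27300 to 34276 CPM in the other controls.

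All 11 T cell markers were lower in edgeR (9 with the set term and 9 in limma voom), with sums of 14.2 to 29.2 CPM in the Ccna2-KO libraries and 44.9 to 204 CPM in the controls. Control replicate 1 had the lowest control sum, 44.9 CPM, against 84.4 to 204 CPM in the other controls. Enteroendocrine markers were lower in 5 of 9, with sums of 56.8 to 77.1 CPM in the Ccna2-KO libraries and 186 to 289 CPM in the controls, and tuft markers in 4 of 6 tested, with 6.16 to 9.02 CPM in the Ccna2-KO libraries and 16.3 to 26.2 CPM in the controls. Markers of dividing cells were higher in 4 of 10, with 762, 956, 974 and 653 CPM in the Ccna2-KO libraries, against 553, 289, 256 and 274 CPM in the controls. The erythroid markers summed to 567, 505, 1645 and 1590 CPM in the Ccna2-KO libraries, against 403, 447, 557 and 576 CPM in the controls, and 1 of 8 tested was called. Of 7 macrophage markers 1 was called, Cd68, which was higher (log2 fold change 1.13 ± 0.28, edgeR adjusted p = 0.0313). Cd68 did not pass with the set term (0.91, adjusted p = 0.0601), where another macrophage marker, Cd14, was lower (-1.06, adjusted p = 0.00288). The median log2 fold change over the 7 was -0.38, and the list's sums were 16.5 to 24.3 CPM in the Ccna2-KO libraries and 18.5 to 34.6 CPM in the controls. Of 2 endothelial markers tested 1 was called, Pecam1, which was lower (-0.94 ± 0.24, edgeR adjusted p = 0.0315), with list sums of 2.16 to 2.94 CPM in the Ccna2-KO libraries and 2.67 to 4.67 CPM in the controls. The median log2 fold change over the 2 was -0.36, so the other marker lay in the opposite direction, and it was not called. Without control replicate 1, 1 marker of the endothelial list was called higher and 1 lower. Cd68, Cd14 and Pecam1 are named after their values were seen. With the set term, which called 18.2% of all genes, 7 enteroendocrine, 6 tuft and 1 goblet marker were lower, and 7 markers of dividing cells and 2 of colonocytes were higher. Without control replicate 1, where 28.5% of all genes were called, 1 goblet and 1 enteroendocrine marker were higher. In that fit 5 enteroendocrine and 4 tuft markers were lower, 10 markers of dividing cells were higher, and 0 colonocyte markers were called. Of all marker genes searched, Sox10 of glia was at 0 in every library. The part of these cells in the carrier results was not tested.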

How the data were processed

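RNA-seq of colonic epithelial cells gave 8 libraries, grouped and numbered after their titles. The deposited table holds estimated counts for each RefSeq transcript, made with kallisto on GRCm38 (mm10) per the submitters' processing notes, with the version not given in the sources used here. Of 107193 transcripts, 687 without a symbol (3.19% to 5.51% of the counts) were left out of library sizes and tests. Counts were summed per symbol and rounded.

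Genes were tested with edgeR 4.0.16 in R 4.3.3 (default filter, TMM scaling, robust quasi-likelihood F test, all 8 libraries, no covariate), with Benjamini-Hochberg adjustment over the 15893 genes kept and a threshold of 0.05. The SE of each edgeR log2 fold change was taken as its absolute size divided by the square root of the F value of the test. CPM uses TMM-scaled library sizes (factors 0.941 to 1.04). Gene totals ranged from 25960180 to 33028486, and no library repeated another within sampling noise. On simulated data for this comparison (15643 genes), the test recovered 47.5% of log2 changes of 1 and 87.5% of those of 2, with 7.09% false calls. Far fewer genes were changed in the simulation than were called in the data, so these rates need not hold for the data.

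The carrier genes, the gene lists, pairs and alternatives were chosen with earlier results of these data known. Values by library are given for each called carrier, for Slc25a3, Slc25a5, Slc25a1, Slc25a20, Slc25a12, Slc25a13, Slc25a37 and Slc25a28, for Ucp2 and Ccna2, and for at most 3 passing genes of each other list by smallest adjusted p. Of the 40 tested carriers, 1 enters the counts and is not reported here by itself. Carriers given beyond that rule were chosen after their values were seen. Alternatives were RLE scaling, plain CPM, no filter, a filter of 1 CPM in a group, DESeq2 1.42.0, limma 3.58.1 voom, the replicate number or the number set as a term, and leaving out each library. Coordinates and exons are from RefSeq and GENCODE on GRCm38.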

Additional observations from a re-analysis of the deposited data

Results flagged for a closer look

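Each group of 4 libraries was searched for a single library that stood far from the other 3 on the log2 scale, in 94 groups, of which chance gives about 1 in 20 and 9 were found. Among those found, control replicate 1 was the lowest control in 5 genes, and it was also the lowest in other carriers that were not flagged, such as Slc25a20 and Slc25a46. It had 272 CPM in Slc25a24 (383 to 400 CPM in the other controls), 1.498 CPM in Slc25a30 (2.63 to 2.74), 34.8 CPM in Slc25a37 (69.0 to 76.2), 37.9 CPM in Slc25a44 (55.9 to 59.2) and 75.1 CPM in Slc25a51 (99.2 to 105). Its log2 ratio of Slc25a12 over Slc25a13 was -0.86, above -1.64 to -1.59 in the other controls.

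Among the Ccna2-KO libraries, replicate 3 had 180 CPM of Slc25a1, against 143 to 146 CPM in the others. Replicate 2 had 7.41 CPM of Slc25a26, against 6.12 to 6.24 CPM, and replicate 4 had 108 CPM of Slc25a51, against 84.9 to 88.4 CPM.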

How the results depend on the processing

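Slc25a45 (log2 fold change 2.45 to 2.58), Slc25a48 (2.06 to 2.68), Slc25a4 (1.26 to 1.82) and Slc25a29 (-1.06 to -0.90) kept their direction and their call in all 16 alternatives, and Slc25a42 (-0.67 to -0.38) lost its call in 8. The 5 called carriers numbered 4 to 6 in 13 alternatives, 8 in DESeq2 and 10 with the set term, and leaving out libraries gave 4 to 12, with 12 without control replicate 1. Over all genes, the 1924 called became 2949 in DESeq2, 987 with the replicate number as a block, 2892 with the set term, and between 972 and 4627 on leaving out 1 library, the lowest without Ccna2-KO replicate 3 and the highest without control replicate 1. The 8 called in the lists around the carriers became 17 with the set term and 27 without control replicate 1, where 18.2% and 28.5% of all genes were called. The 1 called transcript became 0 with no filter. Slc25a37, at -0.01, was positive in voom (0.049), with the block (0.042) and with the set term (0.39), and ranged from -0.21 to 0.087 on leaving out a library. The Slc25a28 over Slc25a37 difference ranged from -0.40 to 0.10, positive without control replicate 1. The causes were not tested.

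Replicate numbers were not taken as pairs: deviations from group means correlated at -0.07, -0.35, -0.26 and 0.15 for replicates 1 to 4, and 1 of 8 libraries correlated best with its own number. With the replicate block, 4 of the 40 tested carriers passed, beside 6.21% of all genes, and Slc25a42 did not (edgeR adjusted p = 0.0710). The 7 carriers under the filter had few counts, and the simulation, with far fewer genes changed than were called in the data, recovered 47.5% of changes of 1 on the log2 scale.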
